A study of Mus musculus with 16 samples.

Results

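Messenger RNA of 9 chemokine receptor genes, Ccr1, Ccr2, Ccr3, Ccr7, Ccrl2, Cx3cr1, Cxcr4, Cxcr3 and Ackr3, was followed in activated bone marrow-derived macrophages (BMMs) with and without a γ-secretase inhibitor (GSI). The genes were taken by symbol, 9 rows of the 47069 in the table of read counts. BMMs were grown for 7 days from marrow of C57BL/6 mice aged 8 to 10 weeks and primed overnight with IFNγ at 10 ng/mL. All were then activated for 1 hr with Salmonella LPS at 100 ng/mL and IgG-opsonized ovalbumin as immune complexes (LPS/ICs). The GSI group received DAPT at 25 µM and the control group the vehicle DMSO at 0.01%, with 2 libraries per group. By the study's methods, inhibitor and vehicle were already present overnight ahead of activation, though legends of its Western blots give a shorter pre-treatment. A difference may thus have arisen before or during the 1 hr of LPS/ICs, and these cannot be told apart. Unstimulated cells were not analysed here, so every value belongs to IFNγ-primed, LPS/IC-activated cells. The labels do not say whether the replicates came from separate cultures or animals, and p-values then measure only the spread between these samples.

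Chemokine receptors are membrane proteins of the G protein-coupled type that sense small secreted chemokines and steer leukocytes along their gradients. Ccr2 brings monocytes out of the marrow and into inflamed tissue, Cx3cr1 marks patrolling monocytes and many tissue macrophages, and Ccr7 guides cells to lymph nodes. Atypical receptors such as Ackr3, and the chemokine receptor-like protein Ccrl2, bind ligands without the usual G protein signal. GSI blocks γ-secretase, the protease that releases the intracellular domain of Notch receptors, so the comparison addressed the receptor mRNA of LPS/IC-activated cells in which that cleavage was inhibited.

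The 4 libraries held 42694655 to 56932059 counts, each being the sum of 4 runs that differed by about the sampling noise. Macrophage genes were abundant: Lyz2, Csf1r, Cd14, Adgre1 and Cd68 lay between 848 and 5420 CPM (read counts scaled to a common library size) in every library. The Notch target Hes1 had 5 and 2 counts with DMSO against 1 and 5 with GSI, and 0 of the 8 Notch target genes listed passed the filter on low counts, so the usual target genes gave no check of the inhibitor here. In other experiments the paper reported loss of cleaved Notch1 with GSI and lower Hes1 mRNA by qPCR.

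Of the 9 receptors, 8 passed the filter on low counts and Ackr3 did not. With GSI, 6 of the 8 were lower at a false discovery rate (FDR) under 0.05, 1 (Ccrl2) was higher and 1 (Ccr7) did not pass. Over the 13211 genes tested, 21.9% were lower and 19.0% higher by the same test. Adding the second threshold, an absolute log2 fold change above 1.5, left Ccr2 and Cx3cr1, both lower, against a background of 2.17% of tested genes lower past both thresholds. With a change above 1.5-fold as the second threshold, Ccr1, Ccr2, Ccr3, Cx3cr1 and Cxcr3 passed, all 5 lower, against 9.05% of tested genes. The median log2 fold change of the 8 tested receptors was -1.08, and that of all tested genes was 0.01. In all 8 the GSI and DMSO libraries did not overlap, with 7 lower in both GSI libraries, and 70.6% of all tested genes did not overlap in one direction or the other.

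**Figure D1:**
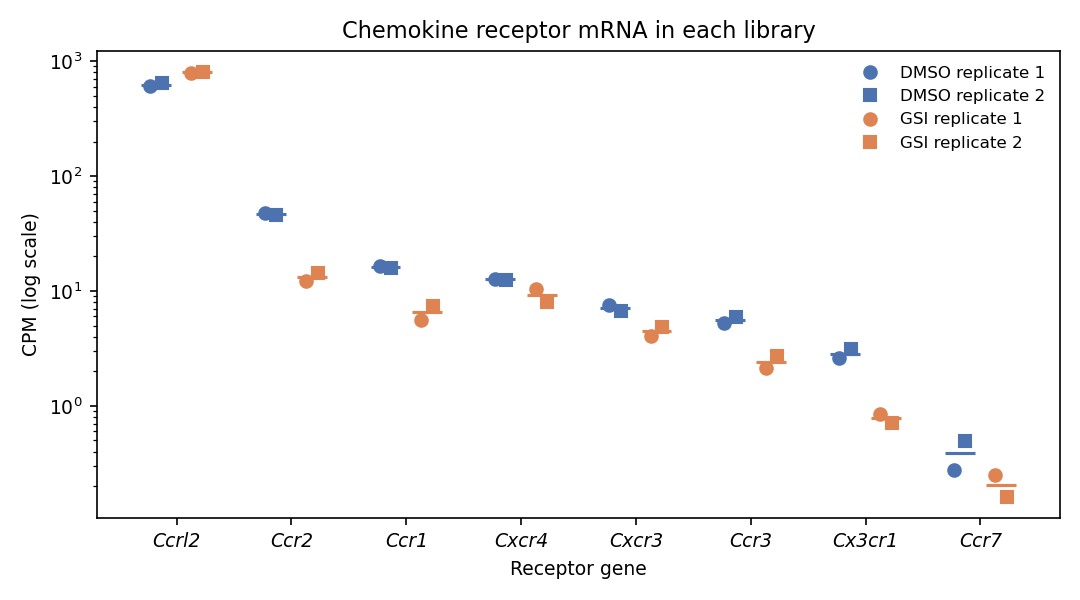
Level of each tested receptor in each library, in CPM on a log axis. Circles and squares are replicates 1 and 2, and horizontal lines are group means. The GSI points lie below the DMSO points for every receptor but Ccrl2.

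Ccr2, the receptor for Ccl2 and related monocyte chemokines, fell with GSI. It measured 47.4 and 45.6 CPM in DMSO replicates 1 and 2 and 12.3 and 14.3 CPM in GSI replicates 1 and 2, from 2038, 2590, 596 and 708 counts. Both GSI libraries lay far below both DMSO libraries, while replicates of a group differed little. The fold change was 3.49-fold lower with GSI (log2 fold change -1.80, SE 0.0871, 95% interval -1.98 to -1.62, FDR = 4.90e-12 by edgeR's quasi-likelihood test). Only 1.55% of the tested genes had a lower log2 fold change.

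Ccr1, a receptor for Ccl3, Ccl5 and other inflammatory chemokines, gave 16.5 and 15.7 CPM with DMSO against 5.63 and 7.37 CPM with GSI. The highest GSI library was below the lowest DMSO library, and the GSI replicates were further apart than the DMSO replicates. The gene was 2.47-fold lower (log2 fold change -1.31, SE 0.114, FDR = 1.65e-08 by edgeR), short of the second threshold. Without GSI replicate 2 its log2 fold change was -1.51, which passes that threshold.

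Ccr3, best known as the eotaxin receptor of eosinophils, measured 5.23 and 5.94 CPM with DMSO and 2.13 and 2.71 CPM with GSI. It was 2.31-fold lower (log2 fold change -1.21, SE 0.150, FDR = 1.91e-06 by edgeR). Of the eosinophil genes, Epx and Prg2, which encode granule proteins, had 0 or 1 count in each library. Siglecf, also found on some macrophages, had 69 and 75 counts with DMSO and 96 and 90 with GSI (FDR = 0.118 by edgeR).

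Cx3cr1, the fractalkine receptor, passed both thresholds on few counts. It gave 2.60 and 3.10 CPM with DMSO and 0.848 and 0.709 CPM with GSI, from 112, 176, 41 and 35 counts. Each GSI library held less than either DMSO library, and the small counts made the interval wide. The fit gave 3.68-fold lower (log2 fold change -1.88, SE 0.207, 95% interval -2.31 to -1.45, FDR = 3.95e-07 by edgeR). Its interval overlaps that of Ccr2, and the difference between these falls was not tested.

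Cxcr3, the receptor for Cxcl9, Cxcl10 and Cxcl11, measured 7.53 and 6.73 CPM with DMSO and 4.08 and 4.90 CPM with GSI. Both GSI libraries were below both DMSO libraries. It was 1.58-fold lower (log2 fold change -0.66, SE 0.128, FDR = 0.000314 by edgeR). Cxcr3 is also a marker of activated T and NK cells. In the list of their markers, Lck had 51 and 58 counts with DMSO against 131 and 105 with GSI, and Cd4 had 23 and 26 against 49 and 33. The genes Cd3d, Cd3e and Cd3g, for CD3 chains of the T cell receptor complex, had 0 to 2 counts in every library. The part of T and NK cells in the values of Cxcr3 was not tested.

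Cxcr4, the receptor for Cxcl12 that holds cells in the marrow, was the least changed of the receptors that fell. Its levels were 12.8 and 12.5 CPM with DMSO and 10.5 and 8.06 CPM with GSI. The DMSO replicates were almost equal, whereas the GSI replicates were further apart from each other than GSI replicate 1 was from the DMSO libraries. The fit gave 1.36-fold lower (log2 fold change -0.44, SE 0.113, FDR = 0.00358 by edgeR). Without GSI replicate 2 the log2 fold change was -0.26 and the FDR 0.0759 by edgeR, so the call for Cxcr4 rests on that library.

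Ccr7, the lymph node homing receptor, was near the limit of detection. It had 12 and 28 counts with DMSO and 12 and 8 with GSI, or 0.279, 0.494, 0.248 and 0.162 CPM. DMSO replicate 1 and GSI replicate 1 had the same count and differed in CPM by library size alone. The estimate was a log2 fold change of -0.95 with a 95% interval of -1.88 to -0.02, an unadjusted p of 0.0455 and an FDR of 0.0946 by edgeR. Of the 8 tested receptors, 7 were above the filter's cut-off of 0.204 CPM in every library, and Ccr7 was the exception.

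Ackr3, a scavenging receptor for Cxcl12, had 0 counts in all 4 libraries. A count of 0 allows up to 3 counts, or 0.0529 to 0.0697 CPM depending on the library. These floors cover counting error only.

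Ccrl2, which binds the chemoattractant chemerin and presents it to other cells, went the other way. It measured 607 and 642 CPM with DMSO and 793 and 806 CPM with GSI. Both GSI libraries were above both DMSO libraries. The rise was 1.28-fold (95% interval 1.15 to 1.42), a log2 fold change of 0.36 with SE 0.0726 (FDR = 0.000549 by edgeR). It remained past the FDR threshold when any 1 library was left out, with log2 fold changes of 0.31 to 0.39.

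**Figure D2:**
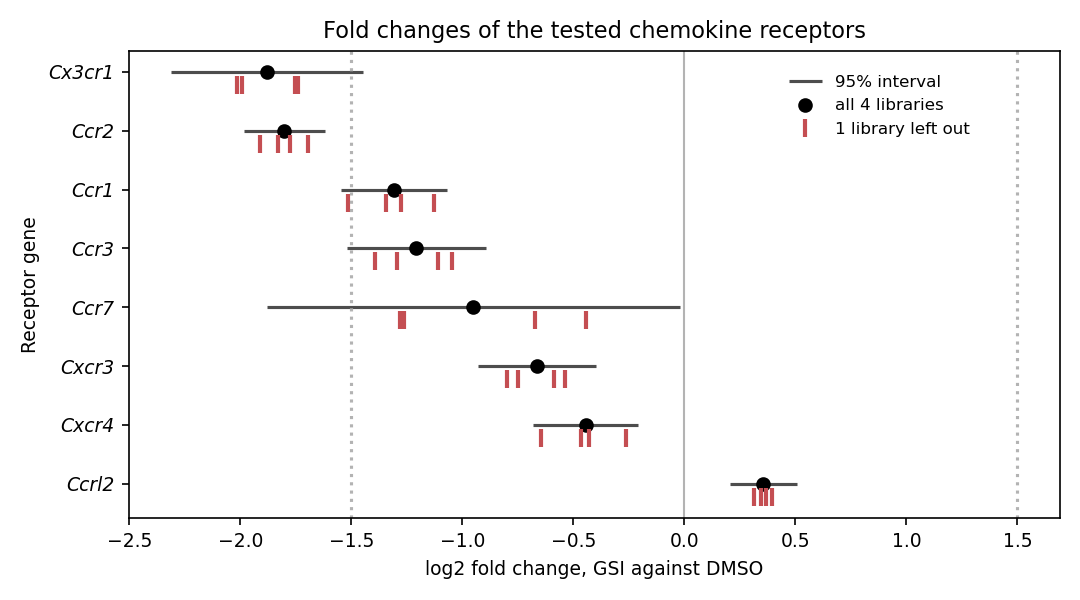
Log2 fold change of each tested receptor, GSI against DMSO, with its 95% interval (black) and the values when each library is left out in turn (red ticks). Dotted lines mark 1.5 in either direction. Cx3cr1 and Ccr2 lie beyond -1.5, Ccr7 has the widest interval, and 1 tick of Ccr1 reaches -1.51.

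Because exon lengths differ, levels of different receptors were compared as RPKM, the CPM of a gene divided by its merged exon length in kilobases. With DMSO, Ccrl2 stood at 234 and 247 RPKM and the next receptor, Cxcr4, at 6.90 to 7.06 RPKM. Cxcr4 overlapped Ccr2 (6.75 to 7.01 RPKM), and below them came Ccr1, Cxcr3, Ccr3, Cx3cr1 and Ccr7, no neighbouring pair of which overlapped. With GSI, Cxcr4 was second at 4.46 to 5.80 RPKM, and Cxcr3 (2.35 to 2.83 RPKM), Ccr1 (1.99 to 2.60 RPKM) and Ccr2 (1.82 to 2.12 RPKM) followed with ranges that overlapped from one to the next. Thus in RPKM Ccr2 moved from level with Cxcr4 to below it. This order rests on the merged exon lengths, 6760 bases for Ccr2 and 1808 for Cxcr4. In mean CPM, Ccr2 was above Cxcr4, at 46.5 against 12.6 with DMSO and 13.3 against 9.27 with GSI.

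Ccrl2 made up 89.8% and 90.5% of the summed RPKM of the 9 receptors with DMSO and 95.9% and 96.0% with GSI. Without it, the sum of the others was 26.5 and 25.9 RPKM in the DMSO libraries and 12.9 and 13.1 RPKM in the GSI libraries. Of that remainder, Ccr2 held 26.4% and 26.1% with DMSO but 14.1% and 16.2% with GSI, and Cxcr4 held 26.6% and 26.7% with DMSO but 44.9% and 34.1% with GSI. Ratios within a library do not depend on the scaling between libraries. In RPKM, Ccrl2 was 33.4 and 36.6 times Ccr2 in the DMSO libraries and 167 and 146 times in the GSI libraries. Ccr2 was 1.20 and 1.22 times Ccr1 with DMSO but 0.918 and 0.815 times with GSI, a lower ratio in both GSI libraries. Ccr1 was 3.64 and 3.06 times Ccr3 in the DMSO libraries and 3.05 and 3.14 times in the GSI libraries, close together in 3 of the 4 libraries.

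**Figure D3:**
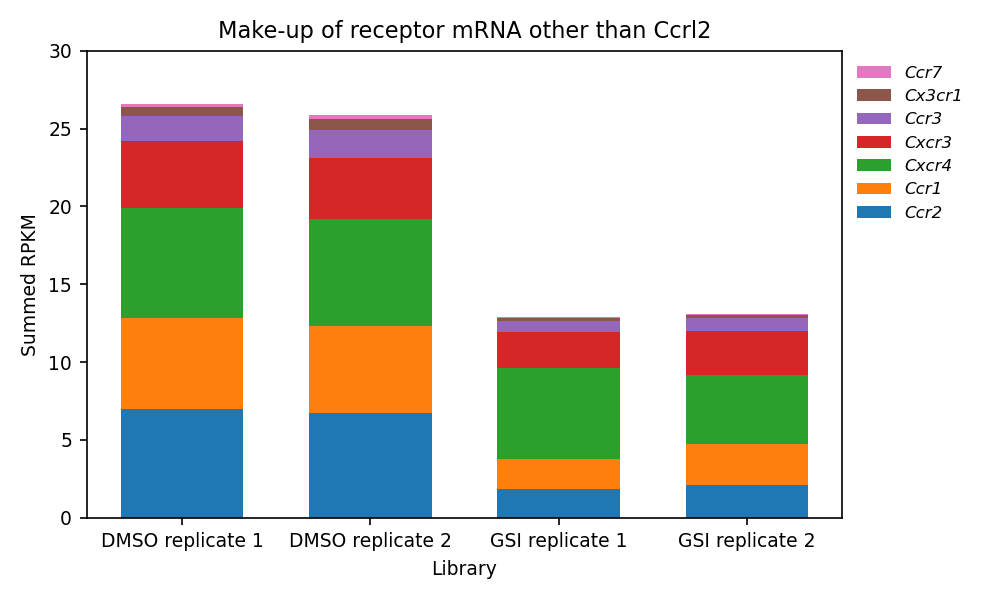
Summed RPKM of the receptors other than Ccrl2 in each library, stacked by gene (Ackr3 is at 0). The bars fall from 26.5 and 25.9 RPKM with DMSO to 12.9 and 13.1 RPKM with GSI, and the Ccr2 part shrinks most in RPKM.

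Of the 9 receptor genes, 5 lie on chromosome 9, and 4 of these fell, where 21.9% of all tested genes were lower. On GRCm38 the protein-coding genes Ccr1 (chr9:123962124-123968692, minus strand), Ccr3 (chr9:124021972-124031689, plus strand) and Ccr2 (chr9:124101950-124113557, plus strand) lie within 151 kb. Cx3cr1 (chr9:119901616-120069879, minus strand) and Ccrl2 (chr9:111054486-111057519, minus strand) are elsewhere on the chromosome. Ccr7 is on chromosome 11, Cxcr4 and Ackr3 on chromosome 1 and Cxcr3 on the X chromosome. Of these, Cxcr4 and Cxcr3 also fell. In a window reaching 500 kb beyond the Ccr1 to Ccr2 span, chosen after the values were seen, 14 of 23 genes considered were tested. Among 5 tested chemokine receptors there, Xcr1, Ccr1, Ccr3 and Ccr2 were lower and Ccr9 did not pass (log2 fold change 0.40, FDR = 0.476 by edgeR). Among the 9 other tested genes, 2 were lower and 1 was higher. The lower ones were Fyco1 (log2 fold change -0.23) and Gm17200, a noncoding RNA with 29 and 17 counts against 4 and 0 (log2 fold change -3.43), and the higher one was Ppp2r3d (log2 fold change 0.36). Gm17200 was above the filter's cut-off in the DMSO libraries alone, so the filter favoured a lower value.

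**Figure D4:**
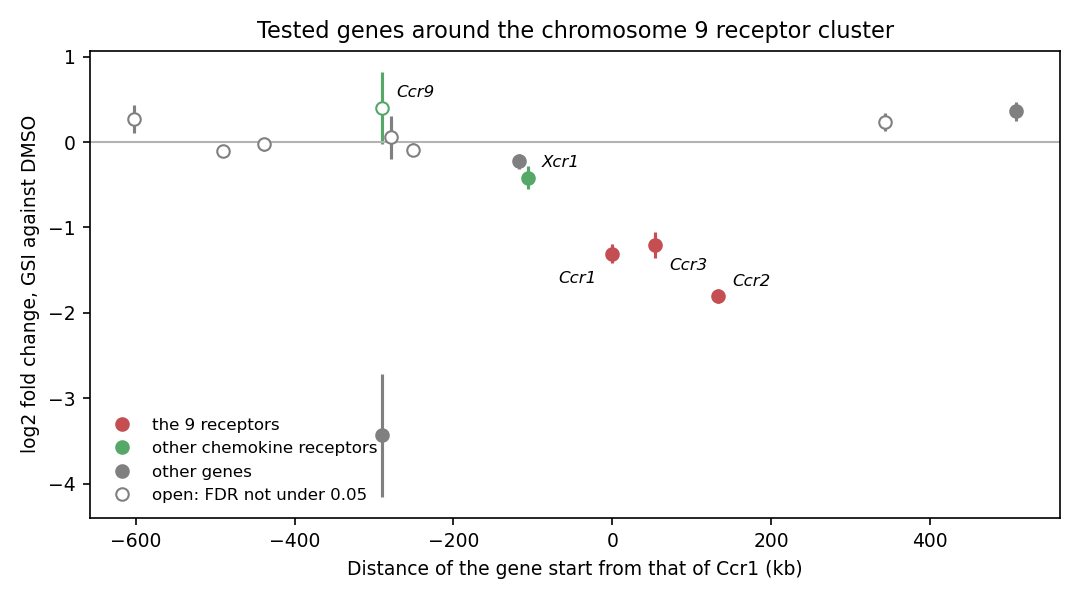
Log2 fold change (GSI against DMSO, bars 1 SE) of the tested genes around the chromosome 9 receptor cluster, by the distance of each gene start from that of Ccr1 in kb. Ccr1, Ccr3 and Ccr2 lie between -1.21 and -1.80, and Gm17200, from few counts, at -3.43. The other genes lie between -0.42 and 0.40.

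Sequence before the start sites is shown for 3 of the receptors that fell, because RBPJ, the DNA-binding partner of cleaved Notch, recognises a core of TGGGAA. The search covered both strands, so the core reads TTCCCA where it lies on the opposite strand. The 250 bases before the RefSeq start site (GRCm38.p6) are given 5′ to 3′ on the gene's strand, with matches to the core in capitals. They are chr9:120068297-120068546 (minus strand) for Cx3cr1, chr9:124021721-124021970 (plus strand) for Ccr3 and chr9:123968693-123968942 (minus strand) for Ccr1.
Cx3cr1: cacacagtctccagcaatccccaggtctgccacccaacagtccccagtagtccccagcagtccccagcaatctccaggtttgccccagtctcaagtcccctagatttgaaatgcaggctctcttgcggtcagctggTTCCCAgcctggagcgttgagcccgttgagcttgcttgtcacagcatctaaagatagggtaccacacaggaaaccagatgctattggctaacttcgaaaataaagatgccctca
Ccr3: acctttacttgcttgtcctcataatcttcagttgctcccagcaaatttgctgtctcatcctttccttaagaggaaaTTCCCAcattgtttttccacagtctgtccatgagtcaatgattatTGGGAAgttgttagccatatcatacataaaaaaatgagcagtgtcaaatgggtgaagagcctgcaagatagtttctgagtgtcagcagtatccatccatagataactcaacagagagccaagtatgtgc
Ccr1: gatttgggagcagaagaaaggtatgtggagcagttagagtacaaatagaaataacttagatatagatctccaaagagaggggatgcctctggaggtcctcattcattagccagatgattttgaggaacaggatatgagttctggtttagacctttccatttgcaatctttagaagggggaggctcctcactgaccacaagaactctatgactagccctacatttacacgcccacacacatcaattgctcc
Cx3cr1 has 1 match, 114 bases before the start and on the reverse strand, and Ccr3 has 2, whose first bases are 174 and 129 bases before it. Ccr1 has 0. RefSeq promoters of 250 bases before to 50 after the start were matched for 8 of the 9 receptors (10 promoters), all but Ccr7. In that longer window Cxcr3 also held the core, after its start, so 3 of 8 receptors had it, and Ccr2, Ccrl2, Cxcr4, Ccr1 and Ackr3 did not. By promoter that was 3 of 10, and of all 32851 promoters 25.6% held it. Receptors with and without these letters were thus both among those that fell, and a match is a description of letters, not of binding.

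The other chemokine receptors gave few tested genes. Of 14 further receptor genes considered, 2 passed the filter and 4 had 0 counts in every library. Xcr1, the receptor for Xcl1, measured 5.02 and 4.64 CPM with DMSO and 3.77 and 3.44 CPM with GSI (log2 fold change -0.42, FDR = 0.0175 by edgeR). The count of lower genes in this list, of which Xcr1 was the only one, went from 1 to 0 with DESeq2 and without GSI replicate 2. Ccr9, the other tested gene, did not pass. Chemokine receptor genes can share sequence, but only 129 of the 6758 stretches of 50 bases in Ccr2 transcripts (1.91%) occur in transcripts of any other gene. For Cx3cr1 the share was 1.06%, and for the other 7 receptors it was 0%. Of the 9 receptors, Cx3cr1 alone overlaps exons of an opposite-strand gene, by 78 bases with Gm33858. Ccr9, outside the 9, shares 1954 exon bases with opposite-strand genes.

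Receptors for other chemoattractants, which share the G protein pathway, were mixed. Of 13 tested, 6 were lower, 2 were higher and 5 did not pass, with a median log2 fold change of -0.44. Gpr183, which senses oxysterols, had the lowest value (log2 fold change -2.55), Cmklr1, a signalling receptor for chemerin, was at -0.72, and Fpr2, a formyl peptide receptor, rose with a log2 fold change of 1.41. The FDR for Cmklr1 was 0.0140 by edgeR. With DESeq2 3 of these genes in place of 6 were lower.

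Chemokines that bind these receptors moved in both directions. Of 16 tested ligand genes, 5 were lower, 7 were higher and 4 did not pass, with a median log2 fold change of 0.04. Cx3cl1, the ligand of Cx3cr1, measured 4.00 and 3.77 CPM with DMSO and 1.18 and 1.28 CPM with GSI (log2 fold change -1.66, SE 0.172, FDR = 1.80e-07 by edgeR). Cxcl9, a ligand of Cxcr3, measured 2101 and 1911 CPM with DMSO and 5623 and 4591 CPM with GSI (log2 fold change 1.35, SE 0.0911, FDR = 4.78e-10 by edgeR). Ccl5, a ligand of Ccr1 and Ccr3, rose from 362 and 424 to 956 and 938 CPM (log2 fold change 1.27, SE 0.0813, FDR = 2.38e-10 by edgeR).

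The remaining 13 tested ligands fall outside the rule for naming genes and are given after their values were seen. Cxcl11, Cxcl10 and Pf4, further ligands of Cxcr3, were higher with GSI at log2 fold changes of 0.78, 0.21 and 0.39, while Cxcr3 was lower. Cxcl11 shares 1582 exon bases with the opposite-strand gene Gm2673, and Cxcl10 shares 133 with Art3. Ccl2, the main ligand of Ccr2, measured 311 and 296 CPM with DMSO and 260 and 284 CPM with GSI and did not pass (log2 fold change -0.16, 95% interval -0.31 to -0.01, FDR = 0.0910 by edgeR). Ccl8, Ccl12 and Ccl7, which also bind Ccr2, had log2 fold changes of 0.75 (higher), -0.30 (lower) and -0.20 (FDR = 0.0783 by edgeR, not past). In a fit with the replicate number as a block, 7 ligands in place of 5 were lower. Of the tested ligands not past, only Ccl2 and Ccl7 had negative log2 fold changes, so their calls depend on the model. Ccl9, a ligand of Ccr1, fell from 820 and 793 CPM with DMSO to 492 and 524 CPM with GSI (log2 fold change -0.67, FDR = 3.87e-07 by edgeR), and Ccl6, which also binds Ccr1, was lower at -0.33. Ccl3 and Ccl4 were at 0.04 and 0.04 on the log2 scale, with overlapping groups. Cxcl12, the ligand of Cxcr4, was low, at 41 and 54 counts with DMSO and 20 and 32 with GSI (log2 fold change -0.84, FDR = 0.0257 by edgeR). Mif, which also binds Cxcr4, measured 84.1 and 90.8 CPM with DMSO against 138 and 130.5 CPM with GSI (log2 fold change 0.62, FDR = 8.32e-07 by edgeR), and so rose. Rarres2, which encodes chemerin, had 5 and 5 counts with DMSO and 0 and 0 with GSI and was not tested.

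Genes that carry the signal inside the cell had log2 fold changes of -0.63 to 0.43. Of these 20 tested G protein and effector genes, 6 were lower, 4 were higher and 10 did not pass, with a median log2 fold change of -0.10. Pik3cg, the catalytic subunit of the PI3K activated by Gβγ, was lower (log2 fold change -0.63, FDR = 1.27e-05 by edgeR), and so was Elmo1, which works with Dock2 to activate Rac (log2 fold change -0.42). Vav1, a guanine nucleotide exchange factor, was higher (log2 fold change 0.43). Of 14 tested genes of receptor desensitisation, 6 were lower, 1 was higher and 7 did not pass, with a median of -0.21. Rgs18, which speeds the shut-off of Gα, was lower (log2 fold change -0.67, FDR = 0.000331 by edgeR), as were β-arrestin 2 (Arrb2, -0.44) and the receptor kinase Grk6 (-0.42).

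Markers of the cells themselves also moved. Of 9 tested macrophage markers, 7 were lower, among them Mrc1 (log2 fold change -1.29), Cd14 (-0.64) and Csf1r (-0.56), while Mertk was higher (0.64) and Cd68 did not pass (0.18). The summed CPM of this list came to 12295 and 12500 for DMSO against 9495 and 10420 for GSI. Of 7 dendritic cell markers, 4 were tested and Itgax (-0.79), Clec9a (-0.69) and Xcr1 (-0.42) were lower, and their list summed to 221 and 214 CPM with DMSO and 133 and 136 CPM with GSI. Clec9a alone measured 181 and 174 CPM with DMSO and 109 and 111 CPM with GSI, so most of that sum was Clec9a. Zbtb46, the other tested gene of the list, had 10 and 19 counts with DMSO against 11 and 10 with GSI and did not pass (log2 fold change -0.43, FDR = 0.477 by edgeR). Of the rest, Cd209a and Siglech had 0 counts in all libraries and Flt3 0 to 2. The part of these shifts in the falls of the receptors was not tested, and in bulk RNA fewer cells of a type and less RNA per cell cannot be told apart.

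Other cell types left few counts. Of 9 T and NK cell markers, 2 were tested, Lck was higher (log2 fold change 1.14) and Cd4 did not pass, and the list summed to 1.74 and 1.60 CPM with DMSO and 3.83 and 2.86 CPM with GSI. The bearing of Lck on the fall of Cxcr3 was not tested. The lists for B cells, neutrophils and their precursors, and eosinophils, mast cells and basophils had 4 tested genes. Of these, 0 passed the FDR by edgeR or DESeq2 and 0 had an unadjusted p under 0.05 by edgeR. Their summed levels in any library were 0.344 to 0.538 CPM, 0.720 to 1.43 CPM and 1.32 to 2.01 CPM. None of the 6 stromal markers was tested.

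For the receptors past the FDR with the largest changes in each direction, the genes with the nearest profile over the 4 libraries were sought among 7581 genes averaging at least 10 CPM. The measure was the Euclidean distance of log2 CPM centred on each gene's mean. For Cx3cr1 they were Dmpk (0.224), D8Ertd82e (0.322) and Rrm2 (0.338), and for Ccr2 they were Chn2 (0.143), Ckap2l (0.144) and Tlr8 (0.198). For Ccrl2, the only receptor that rose, they were Tapbp (0.0156), Emc4 (0.0160) and Pfdn6 (0.0169). With 4 libraries in 2 groups, nearness mostly means a like difference between the groups.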

How the data were processed

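Stranded mRNA libraries of BMMs were read on an Illumina NextSeq 500. The authors trimmed reads with Trimmomatic, aligned them with STAR (2.5.0a per the submitters' processing notes) to mm10 and counted reads per gene with HTSeq, whose strand setting is not given in the sources used here. The notes also list mm9. The deposited values are raw counts per gene and run.

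The 4 columns of each replicate, taken as runs since the labels do not define them, were summed to 4 libraries. Counts were tested with edgeR 4.0.16 (R 4.3.3; quasi-likelihood, filterByExpr with a minimum count of 10, TMM, group only) with Benjamini-Hochberg adjustment over 13211 genes. SE is the absolute log2 fold change over the square root of F. CPM use TMM-adjusted library sizes, RPKM merged GENCODE M21 exons (98.95% of gene IDs found). Of symbols with several gene IDs in a list, the lowest ID was used. The fit was tested on simulated data.

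The receptors and lists were chosen with earlier results of these data known. Of each other list, the 3 tested genes past the FDR with the largest absolute log2 fold changes were to be named; genes outside this rule (other markers, ligands, genes of the chromosome 9 window) were named after their values were seen. Alternatives were DESeq2 1.42.0, normalization by RLE or by library totals, other filters, a replicate block, runs as samples, a 1.5-fold cut-off and leaving out each library. Promoters are from RefSeq. Some genes are not reported here.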

Additional observations from a re-analysis of the deposited data

How the results depend on the processing

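The counts of receptors lower (6), higher (1) and past both thresholds (2) stayed as given with DESeq2, RLE factors, library totals alone, both other filters and the 16 runs as separate samples, and Ccr7 was not tested with at least 10 counts in every library or with the 16 runs. With a change above 1.5-fold as the second threshold, 5 receptors passed, all lower, against 9.05% of tested genes. Leaving out each library gave 5 to 6 lower, 1 to 1 higher and 2 to 3 past both, with the lone library of a group taken to vary like the other group. The changes came without GSI replicate 2, where Cxcr4 lost its call (log2 fold change -0.26, FDR 0.0759 by edgeR) and Ccr1 passed both thresholds (-1.51). No direction reversed. With the replicate number as a block, the receptor counts were again 6, 1 and 2, and over all genes 3314 were lower and 3130 higher; deviations of same-numbered libraries correlated at r = 0.15 over 13211 genes, from 2 pairs, so the numbers were not taken to pair the samples. Over all genes, 385 passed both thresholds, against 556 with every gene of at least 1 count, 154 with at least 10 counts in every library and 178 with the 16 runs, where 3896 in place of 2504 were higher. In the gene lists, lower G protein and effector genes went from 6 to 10 with the 16 runs and higher ones from 4 to 2 without DMSO replicate 2. Higher macrophage markers and higher T and NK cell markers each went from 1 to 2 under 4 alternatives, among them the block and leaving out GSI replicate 2. Higher desensitisation genes went from 1 to 0 without DMSO replicate 1, neutrophil genes from 0 to 1 without DMSO replicate 2, and eosinophil, mast cell and basophil genes from 0 to 1 with the 16 runs. Ccr7, at 8 to 28 counts per library, and Ackr3, at 0, are the receptors on which these counts say least.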
